A study of Homo sapiens with 3 samples.

Results

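The constitutive proteasome subunit genes were taken from the table by symbol, as every gene named PSMA to PSMG with a number. The immunoproteasome genes PSMB8, PSMB9 and PSMB10 and 11 listed pseudogenes were left out. This gave 43 of the 29689 genes, all of them protein coding. Of these, 34 fell into the 4 subunit classes, with 7 genes of the 20S alpha class (PSMA), 7 of the 20S beta class (PSMB), 6 of the 19S ATPase class (PSMC) and 14 of the 19S non-ATPase class (PSMD). The name pattern also took 9 genes of proteasome regulators and assembly factors (PSME, PSMF and PSMG), which are given separately. PSMA8 and PSMB11, of testis and thymus, were not analysed here.

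RNAseq was performed on tumors of SUM-149, a human cell line of triple-negative breast cancer (TNBC), to compare gene expression under inhibition of CDK2 and of EZH2. The cells were mixed with Matrigel and grown as orthotopic xenografts in the mammary fat pads of female Nu/Nu mice, which lack T cells but keep other host cells. One library each came from a vehicle tumor, a tumor treated with the CDK inhibitor dinaciclib (CDK2i) and a tumor treated with the EZH2 inhibitor EPZ6438 (EZH2i), with 10 days of treatment. The sample labels name EPZ6438, whereas the study's legend for SUM-149 tumors names GSK343, and the identity of the EZH2i was not settled here. All 3 tumors come from 1 cell line. With 1 library per group no value has a replicate error, no test was made, and each difference below is between single libraries.

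The 26S proteasome degrades proteins that carry ubiquitin chains. Its 20S core is a barrel whose outer rings of alpha subunits gate the entry and whose inner rings of beta subunits cut the substrate. The 19S particle caps the core, where its non-ATPase subunits bind and remove ubiquitin and its ATPase ring unfolds the substrate and threads it into the barrel. Cells are known to raise the subunit genes together when proteasome activity is short, through the transcription factor NFE2L1.

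The sequences before the transcription start are shown for 4 subunit genes, since they hold the letters of known regulators of this family. PSMC6 and PSMD12 differed most between the treated tumors together with PSMD5, and PSMB3 and PSMD3 had CDK2i changes nearest to 0. The motifs searched on both strands were TGACNNNGC, the core of the antioxidant response element that NFE2L1 and NFE2L2 bind, CCAAT, the letters bound by NF-Y, and CCGGAAG, a core of ETS factor sites. Capitals mark their matches, on either strand, in the 250 bases before the start (RefSeq, GRCh38.p14), each run written 5′ to 3′ on the strand of the gene. The windows are chr14:52706950-52707199 (plus strand) for PSMC6, chr17:67366578-67366827 (minus strand) for PSMD12, chr17:38752491-38752740 (plus strand) for PSMB3 and chr17:39980557-39980806 (plus strand) for PSMD3.
PSMC6: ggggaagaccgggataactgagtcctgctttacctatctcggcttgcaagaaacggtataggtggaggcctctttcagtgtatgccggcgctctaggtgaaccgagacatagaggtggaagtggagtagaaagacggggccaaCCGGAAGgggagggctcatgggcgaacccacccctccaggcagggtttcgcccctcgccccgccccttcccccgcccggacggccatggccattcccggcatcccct
PSMD12: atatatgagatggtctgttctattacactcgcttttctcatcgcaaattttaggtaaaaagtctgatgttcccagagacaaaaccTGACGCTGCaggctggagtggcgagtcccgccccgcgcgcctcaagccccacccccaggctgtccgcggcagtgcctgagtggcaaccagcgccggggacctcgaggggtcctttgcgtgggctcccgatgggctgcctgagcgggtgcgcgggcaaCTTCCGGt
PSMB3: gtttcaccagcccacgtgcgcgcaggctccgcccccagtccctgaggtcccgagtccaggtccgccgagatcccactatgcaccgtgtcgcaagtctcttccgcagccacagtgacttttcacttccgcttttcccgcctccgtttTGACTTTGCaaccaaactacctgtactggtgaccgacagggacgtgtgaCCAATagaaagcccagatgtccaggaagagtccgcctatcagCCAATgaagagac
PSMD3: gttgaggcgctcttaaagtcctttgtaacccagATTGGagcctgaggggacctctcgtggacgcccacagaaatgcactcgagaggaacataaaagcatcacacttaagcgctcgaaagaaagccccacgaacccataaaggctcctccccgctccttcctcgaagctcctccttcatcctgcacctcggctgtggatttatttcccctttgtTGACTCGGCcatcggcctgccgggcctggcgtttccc
A window was given for 29 of the 34 subunit genes. TGACNNNGC was found in 7 of them (24.1%), against 13.2% of 27305 genes with a window. The 7 were PSMA4, PSMB3, PSMC5, PSMD3, PSMD5, PSMD9 and PSMD12. CCAAT was found in 15 (51.7%, all genes 37%) and CCGGAAG in 7 (24.1%, all genes 10.2%). The genes behind these shares were not matched to the subunit genes for gene type or for GC content of the window, so no enrichment is read from them. Of the 7 genes with TGACNNNGC, PSMB3 (−0.01, log2), PSMD3 (0.02) and PSMC5 (−0.07) differed little between CDK2i and vehicle. PSMA4 (−0.46), PSMD12 (−0.51) and PSMD5 (−0.64) were lower in CDK2i, and PSMD9 missed the limit for expressed genes given below. The PSMD5 window overlaps exons of another gene. Whether the motif bears on these differences was not tested. A match of letters is a description of the sequence and shows no binding.

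The levels are given as log2 FPKM, fragment numbers scaled to gene length and library size, so they are per length. The gene lengths used are not known, and the order of levels between genes holds for the deposited scale. The depth, estimated from the step of 1 fragment in weakly expressed genes, was 16.8 M (M, 1000000) fragments in the vehicle library, 19.1 M in that of CDK2i and 17.5 M in that of EZH2i. The value −9 marks an FPKM of 0. The 11109 genes that lacked it and whose mean exceeded log2 FPKM 1 were taken as expressed. By this rule 31 of the 34 subunit genes were expressed, and none of the 43 genes was at −9 in any tumor. The basal-like markers KRT5, KRT14, KRT17 and EGFR were expressed in all 3 tumors. EPCAM (6.05, 6.21 and 6.34 in vehicle, CDK2i and EZH2i) and CDH1 (5.025, 5.49 and 5.37) were expressed too. The study describes their proteins as high in differentiated luminal tumors and low in basal-like ones. The FPKM of these 6 genes, mostly from the keratins, summed to 5080 (vehicle), 12164 (CDK2i) and 4815 (EZH2i). Of the receptors that are low in TNBC, ESR1 and PGR were near or below log2 FPKM 0 and ERBB2 was at 4.93, 4.92 and 4.46. Human macrophage markers summed to 11.3, 11.1 and 5.52 FPKM, fibroblast markers to 24.4, 38.3 and 28.8, and the endothelial markers CDH5, VWF and KDR to less than 1 in each tumor. The macrophage genes CD68 in both treated tumors and PTPRC in EZH2i were listed at −9. In vehicle they were barely detected, at −4.98 and −5.48, so no loss is read from this. CD68 also shares 94.9% of its transcript with an annotated gene that joins it to a neighbor, so its level is uncertain. Fragments of mouse host cells that align to the human genome cannot be told apart from those of the tumor cells. The part of these differences in the results below was not tested. In bulk tumors, fewer cells of a type and less RNA per cell cannot be told apart.

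PSMA7, which encodes an alpha ring subunit and lies at chr20:60711789-60718496 (minus strand) of GRCh37, was the highest proteasome gene in each tumor. Its level was 9.27 in vehicle, 9.31 in CDK2i and 8.999 in EZH2i. It alone made up 27.7%, 29.4% and 23.5% of the summed FPKM of the 34 subunit genes, although the subunits occur in equal numbers in the 20S core. PSMA3 and PSMA4 came next and lay close together on the deposited scale, but at 7.73 and 6.77 in vehicle when rescaled to the length of the canonical transcript. PSMA3 was at 6.03, 5.76 and 6.51, and PSMA4 at 6.10, 5.64 and 6.12, in the order vehicle, CDK2i and EZH2i, which is kept below. PSMA5 was lower, at 4.42, 4.11 and 4.50.

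The other alpha genes were far below their partners in the ring. PSMA1 was at 2.38, 2.06 and 2.63, PSMA2 at −0.27, −1.26 and 0.16, and PSMA6 at −1.36, −1.25 and −0.33. PSMA2 and PSMA6 therefore missed the limit for expressed genes. These 3 genes share exons, on the same strand, with annotated readthrough genes that join them to a neighbor. The shared part was 67.0% of the canonical transcript of PSMA1, 100% of PSMA2 and 81.4% of PSMA6. The shared part of PSMD9, the remaining unexpressed subunit gene, was 28.8%. No other subunit gene had such overlap. Over the table, 414 protein coding genes with at least 50% of the transcript in a readthrough gene had a median of 0.38 in vehicle, against 1.84 for the 16546 other protein coding genes. How the counting treated fragments in shared exons is not given in the sources used here. PSMA6 had about 43, 52 and 91 fragments, and its EZH2i level was 2.04-fold that in vehicle, with a counting interval of 0.48 to 1.58 on the log2 scale. The low values of these genes are therefore uncertain and are not read as low expression.

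**Figure D1:**
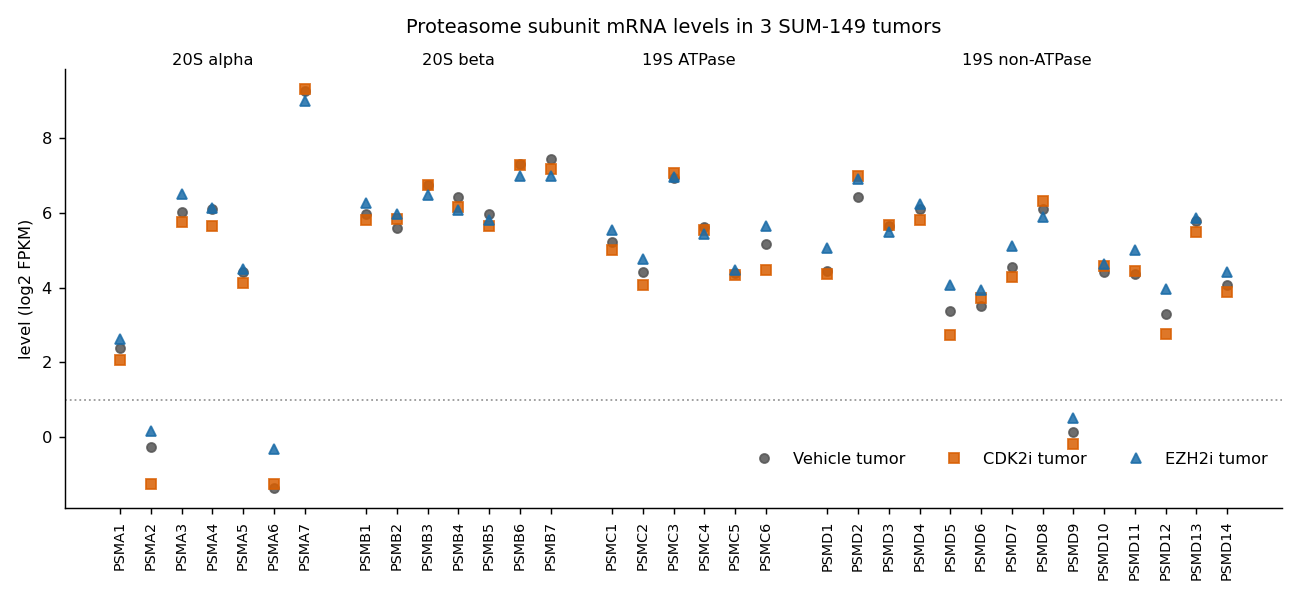
Level of each of the 34 subunit genes in log2 FPKM (vertical axis) by class, with 1 symbol per tumor and library (circle vehicle, square CDK2i, triangle EZH2i) and a dotted line at 1, the limit for expressed genes. PSMA7 lies near 9 in all 3 tumors, and PSMA2, PSMA6 and PSMD9 lie below the line.

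All 7 beta genes were well expressed, and none was below 5.59 in any tumor. Over the expressed genes of each class, the beta class had the highest median level in each tumor, with 6.42 in vehicle, 6.15 in CDK2i and 6.27 in EZH2i. PSMB7, which encodes the trypsin-like catalytic subunit, was at 7.44, 7.17 and 6.99. PSMB6, of the caspase-like subunit, was at 7.32, 7.29 and 6.99. PSMB5, of the chymotrypsin-like subunit that bortezomib inhibits, was at 5.97, 5.64 and 5.81, so the catalytic genes were not at equal mRNA levels in any tumor. Of the subunits without a catalytic site, PSMB3 was at 6.75, 6.74 and 6.49, PSMB4 at 6.42, 6.15 and 6.09, PSMB1 at 5.97, 5.80 and 6.27 and PSMB2 at 5.59, 5.83 and 5.98.

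Among the ATPase genes PSMC3 was the highest, at 6.93, 7.06 and 6.96. PSMC4 followed at 5.61, 5.55 and 5.43 and PSMC1 at 5.23, 4.99 and 5.55. PSMC6 was at 5.18, 4.48 and 5.64, PSMC2 at 4.41, 4.08 and 4.75 and PSMC5 at 4.40, 4.33 and 4.47. The ATPases form 1 ring in equal numbers, and their levels in vehicle spanned 5.77-fold in FPKM from PSMC5 to PSMC3. Rescaled to the canonical transcript the lowest was PSMC1 and the span to PSMC3 was 3.43-fold. The median of the class was 5.21, 4.74 and 5.49.

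The non-ATPase genes had the lowest class median in vehicle, and their products range from scaffolds and ubiquitin receptors to assembly factors. PSMD2, a scaffold of the base, was the highest on the deposited scale at 6.43, 6.996 and 6.90, whereas PSMD1, the other large scaffold, was at 4.44, 4.36 and 5.06. PSMD4, a ubiquitin receptor, was at 6.11, 5.80 and 6.24. PSMD14, the deubiquitinase of the lid, was at 4.08, 3.87 and 4.41, and its partner PSMD7 at 4.55, 4.27 and 5.11.

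Of the other lid subunits, PSMD8 (6.10, 6.32 and 5.90), PSMD13 (5.80, 5.49 and 5.87) and PSMD3 (5.65, 5.66 and 5.48) were the highest. PSMD11 (4.35, 4.45 and 5.004), PSMD6 (3.51, 3.73 and 3.92) and PSMD12 (3.28, 2.77 and 3.96) were lower. PSMD5, PSMD9 and PSMD10 carry subunit names but encode chaperones that assemble the base and are absent from the finished particle. PSMD5 was at 3.38, 2.74 and 4.06 and PSMD10 at 4.41, 4.57 and 4.64. PSMD9 was at 0.13, −0.20 and 0.51.

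The class medians depended on the gene length behind the FPKM. Rescaled to the canonical transcript, as if the deposited length were the union of all exons in GENCODE 44, the medians in vehicle were 6.77 for alpha, 7.36 for beta, 6.12 for ATPase and 6.30 for non-ATPase genes. On the deposited scale they were 6.03, 6.42, 5.21 and 4.44. The beta class was the highest on both scales in vehicle, but the ATPase and non-ATPase classes changed places. In CDK2i the rescaled median of the non-ATPase genes, 6.46, also lay above that of the alpha genes, 6.31. The order of the 31 expressed subunit genes was close to the same in each pair of tumors. The Spearman correlation of their levels was 0.956 between vehicle and CDK2i, 0.963 between vehicle and EZH2i and 0.948 between CDK2i and EZH2i (n = 31 genes, which are not replicates and share their lengths). The 34 genes together took 0.466% of all FPKM of the vehicle tumor, 0.50% for CDK2i and 0.538% for EZH2i. Their summed FPKM was not higher in the treated tumors, at 2231, 2159 and 2178. The summed FPKM of all genes was lower there, at 478777, 431781 and 405028. Of the summed FPKM of the 34 subunit genes, the alpha genes held 34.9%, 35.2% and 32.3% and the beta genes 31.4%, 29.7% and 28.0%. The ATPase genes held 12.8%, 12.6% and 14.4% of it and the non-ATPase genes 20.9%, 22.5% and 25.4%. On the deposited scale the share of the 19S genes was thus highest in EZH2i, and that of the beta genes highest in vehicle. The shares were not corrected for GC content and length of the transcripts. That correction turned the median difference of the beta genes between EZH2i and vehicle from −0.26 to 0.26, as given below.

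CDK2i was compared with vehicle to ask whether the subunit genes differed after treatment with dinaciclib. The study names CDK1, CDK5 and CDK9 beside CDK2 as its targets, and the part of each was not tested. No subunit gene passed the thresholds of the study, a fold above 2 with the higher of both values above log2 FPKM 3. The count was 0 of 34, with 30 of the 34 reaching the expression minimum, against 11.3% of all genes that reached it (3.27% higher and 8.07% lower). Of the 31 expressed subunits, 22 were lower than in vehicle and 9 higher. The background was 58% lower and 41.9% higher over all expressed genes. The median difference was −0.20 (log2), against −0.11 over all expressed genes. Over the 6229 expressed genes with a mean above log2 FPKM 3, which are closer in level to the subunits, it was −0.03, and 51.8% were lower.

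By class the median difference between CDK2i and vehicle was −0.31 for alpha, −0.16 for beta, −0.16 for ATPase and −0.08 for non-ATPase genes. The most negative differences were those of PSMC6 (−0.70), PSMD5 (−0.64), PSMD12 (−0.51) and PSMA4 (−0.46). The most positive difference was that of PSMD2, at 0.57, or 1.48-fold, followed by PSMB2 with 0.25. PSMA7 (0.04), PSMD3 (0.02), PSMB3 (−0.01) and PSMB6 (−0.03) were nearly equal in both tumors. The proteasome genes thus spanned −0.70 to 0.57. Their SD across genes was 0.28, against 0.71 for all expressed genes and 0.60 for those with a mean above log2 FPKM 3.

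The median of the non-ATPase class turned positive under other scalings of the libraries. It was 0.03 when libraries were aligned on their median gene and 0.07 when they were brought to equal FPKM sums. PSMD2 stayed higher and PSMC6, PSMD5 and PSMD12 stayed lower than in vehicle under the 6 scalings and corrections tried. The sign was kept under all 6 for 22 of the 31 genes. The pseudocounts among the 6, constants added to each FPKM, cannot turn the sign of a gene. The centring and the sum scalings move all genes of a library by the same amount.

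In EZH2i, compared with vehicle to ask the same of EZH2 inhibition, again 0 of 34 subunit genes passed the thresholds, with 30 reaching the minimum. The background was 13.4% (8.93% higher and 4.42% lower). Of the 31 expressed subunits, 22 were higher than in vehicle and 9 lower, against 61.5% higher and 38.5% lower over all expressed genes. The median difference was 0.23, against 0.19 over all expressed genes and 0.08 over those with a mean above log2 FPKM 3, of which 55.6% were higher. Without the base chaperone genes PSMD5 and PSMD10 it was 0.12, below the median of all expressed genes. This comparison uses the same vehicle library as that of CDK2i, so the values of both are not independent and a deviation of the vehicle tumor enters both.

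The classes lay on both sides of 0 in EZH2i. The median difference was 0.42 for non-ATPase, 0.20 for ATPase and 0.08 for alpha genes, but −0.26 for beta genes. PSMD5 (0.68), PSMD12 (0.68), PSMD11 (0.65), PSMD1 (0.62) and PSMD7 (0.55) had the most positive differences. On the deposited scale the catalytic genes PSMB7 (−0.45), PSMB6 (−0.33) and PSMB5 (−0.16) were all below vehicle in EZH2i, but the sign of PSMB6 and PSMB5 turned with the correction for GC content and length given below. In CDK2i their differences were −0.27, −0.03 and −0.33, and that of PSMB6 turned to 0.10 with the same correction. Other genes below vehicle in EZH2i were PSMB4 (−0.33), PSMA7 (−0.27), PSMB3 (−0.26), PSMD8 (−0.20), PSMC4 (−0.18) and PSMD3 (−0.16). The sign was kept under the 6 scalings and corrections for 17 of the 31 genes, PSMD5, PSMD12, PSMD2 and PSMB7 among them. Here too the pseudocounts could not turn a sign. The SD across the 31 genes was 0.34, against 0.69 for all expressed genes and 0.62 for those with a mean above log2 FPKM 3.

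**Figure D2:**
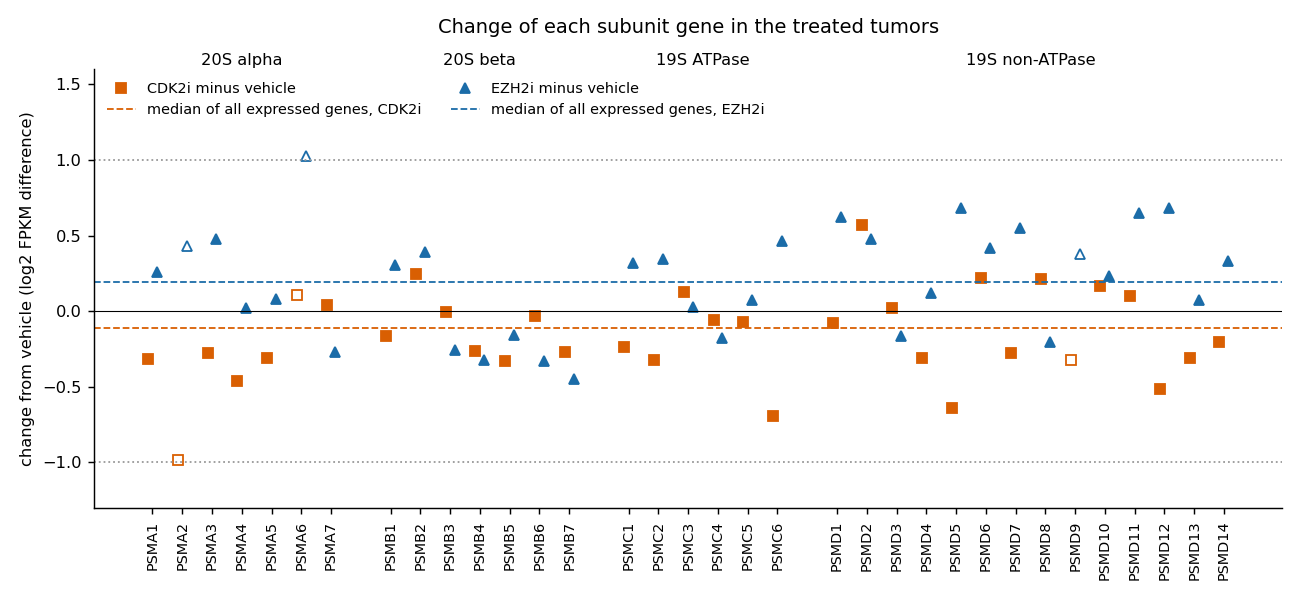
Difference from vehicle in log2 FPKM (vertical axis) for each subunit gene in CDK2i (squares) and EZH2i (triangles), with open symbols for the 3 genes that were not expressed, dashed lines at the median of all expressed genes and dotted lines at a 2-fold change. The beta genes PSMB3 to PSMB7 lie below 0 in EZH2i and most non-ATPase genes above it, and among expressed subunits no symbol reaches a 2-fold change.

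Whether a subunit gene was higher or lower in EZH2i went with the base composition of its transcript. All 15 expressed subunits with a GC content under the median of the 31, 47.9%, were higher in EZH2i, with differences of 0.02 to 0.68 and a median of 0.42, against 0.56 over 4593 expressed genes under the same limit. Of the 16 at or above this GC content 7 were higher and 9 lower, with a median of −0.16, against −0.08 over 5609 genes. The Spearman correlation with GC content was −0.631 (n = 31 genes), against −0.581 over 10202 expressed genes without ribosomal protein genes. With transcript length it was 0.555, against 0.489. In CDK2i the correlation with GC content was 0.489 over the subunits and 0.035 over all genes. The beta genes had a median GC content of 52.0% and the alpha genes of 41.4%.

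With the trend of GC content and length over all genes removed, the EZH2i medians were 0.16 for alpha, 0.26 for beta, 0.14 for ATPase and 0.33 for non-ATPase genes. The beta median thereby changed its sign. Of the 31 subunits 28 were higher than in vehicle, but the share of all genes higher after the correction is not given here. The median of all genes was above 0 as well, at 0.21. The subunits lower than in vehicle were PSMA4 (−0.41), PSMA5 (−0.40) and PSMB7 (−0.10). PSMB6 went from −0.33 to 0.26 and PSMB5 from −0.16 to 0.29. The gap between the non-ATPase and the beta medians narrowed from 0.68 to 0.07. The median over the 31 subunits was 0.28 after the correction, against 0.21 over all genes. In CDK2i the corrected median was −0.11, against −0.09 over all genes, with 13 subunits higher and 18 lower. These counts too have no corrected share of all genes beside them. The correction did not leave the 31 subunits free of these relations. In EZH2i their corrected differences had a Spearman correlation of 0.275 with GC content and −0.310 with length, the reverse of the signs before it. In CDK2i the corrected correlation with GC content was 0.551. The corrected signs of single genes and classes therefore depend on the fit. Why the EZH2i library ran with GC content was not tested.

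**Figure D3:**
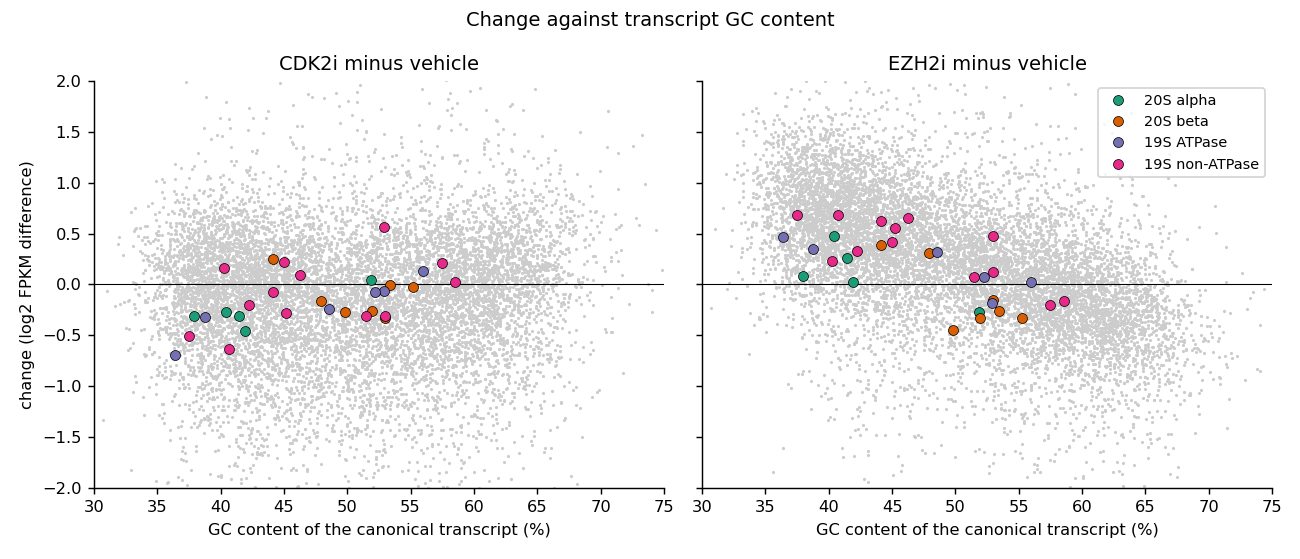
Difference from vehicle in log2 FPKM (vertical axes) against GC content of the canonical transcript in percent (horizontal axes) for the 31 expressed subunits, colored by class, over all expressed genes in gray, with CDK2i on the left and EZH2i on the right and values beyond 2 not drawn. In EZH2i the subunits fall from left to right with the gray cloud (Spearman −0.631 for the subunits and −0.581 for all genes), and all 15 subunits under 47.9% GC lie above 0.

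**Figure D4:**
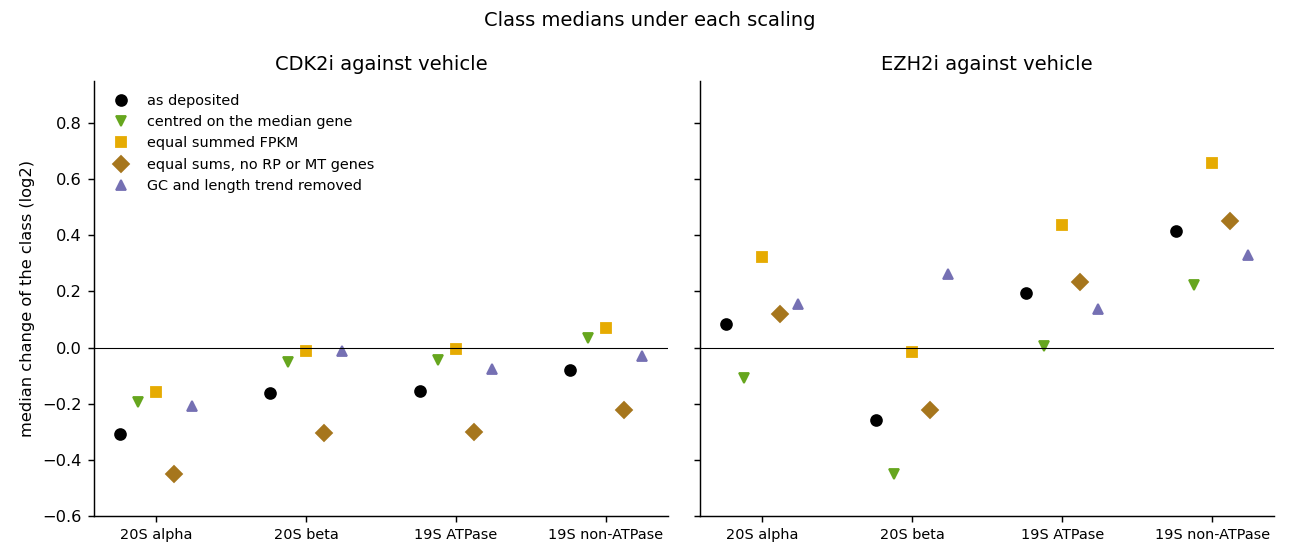
Median log2 difference from vehicle of each class (vertical axes) in CDK2i (left) and EZH2i (right), with 1 symbol per scaling or correction. The beta median in EZH2i is −0.26 as deposited and 0.26 after removal of the GC and length trend, and the non-ATPase median in EZH2i is above 0 under each of the 5 settings drawn.

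The treated tumors were also set against each other, a comparison without the vehicle library. In EZH2i, 3 of 34 subunit genes were more than 2-fold higher than in CDK2i and 0 were lower, whereas 17.5% of all genes that reached the minimum were higher and 6.53% lower. The 3 were PSMD5 (1.32, or 2.50-fold), PSMD12 (1.19, or 2.29-fold) and PSMC6 (1.16, or 2.24-fold). They lie at chr9:123577774-123605229 (minus strand), chr17:65334032-65362721 (minus strand) and chr14:53173896-53195308 (plus strand) of GRCh37. Each was lower than vehicle in CDK2i and higher than vehicle in EZH2i.

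PSMC6 had about 4545 fragments in vehicle, 3201 in CDK2i and 6553 in EZH2i. The counting interval (95%, exact binomial, counting error only) of its difference between the treated tumors was 1.10 to 1.22. For PSMD5, with about 768, 562 and 1286 fragments, it was 1.18 to 1.47. For PSMD12, with about 872, 697 and 1459, it was 1.06 to 1.33. The spread between tumors is not in these intervals. Their transcripts had 36.4%, 40.7% and 37.5% GC, all in the lower part of the range of the subunits, 36.4% to 58.5%. With the GC and length trend removed the differences were 0.84, 0.92 and 0.69, so that none of the 3 passed.

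Over the 31 subunits the median difference between EZH2i and CDK2i was 0.38, against 0.35 over all expressed genes and 0.15 over those with a mean above log2 FPKM 3. Of the 31, 21 were higher in EZH2i and 10 lower, with 66.9% higher and 33% lower over all expressed genes and 58.3% and 41.6% over those with a mean above log2 FPKM 3. PSMD7 (0.83), PSMA3 (0.75), PSMD1 (0.70) and PSMC2 (0.67) followed the 3 genes above. The most negative values were those of PSMD8 (−0.42), PSMA7 (−0.31), PSMB6 (−0.30) and PSMB3 (−0.25). The Spearman correlation with GC content was −0.760 (n = 31 genes), against −0.459 over 10202 genes.

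The regulators of the 20S core were expressed in each tumor, and only PSME4 passed the thresholds, in EZH2i. It was 1 of the 9 PSME, PSMF and PSMG genes, 7 of which reached the minimum there. Over all genes that reached it, 8.93% were higher in EZH2i. PSME4 encodes PA200, a nuclear activator that caps the core, and lies at chr2:54091206-54198130 (minus strand). Its level was 3.78 in vehicle, 3.97 in CDK2i and 4.93 in EZH2i, so EZH2i was 2.22-fold above vehicle. Its transcript had 42.2% GC and was 7250 bases long, and the difference was 0.59, or below the threshold, with the trend of both removed. PSME3, another nuclear activator, was at 4.79, 4.97 and 5.33. PSME1 and PSME2, whose products form the interferon-induced activator PA28, were at 5.58, 5.86 and 5.57 and at 4.43, 4.47 and 4.46. The inhibitor PSMF1 was at 2.93, 3.14 and 2.92. On the deposited scale the 4 activators differed from vehicle by 0.04 to 0.28 in CDK2i.

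The assembly chaperones of the alpha ring were lower in CDK2i. PSMG3 was at 5.29, 4.49 and 5.14, PSMG4 at 3.13, 2.37 and 3.07 and PSMG1 at 3.42, 3.14 and 3.84. In CDK2i the difference from vehicle was −0.81 for PSMG3, −0.76 for PSMG4 and −0.28 for PSMG1. None of PSMG1, PSMG3 and PSMG4 passed the 2-fold threshold. PSMG2, which pairs with PSMG1, was not expressed by the rule, at −0.92, −3.01 and 0.12, or about 111, 30 and 237 fragments. It was the lowest in CDK2i too, with a difference from vehicle of −2.10, past 2-fold. Its levels were under log2 FPKM 1 in each tumor, so it did not reach the expression minimum.

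**Figure D5:**
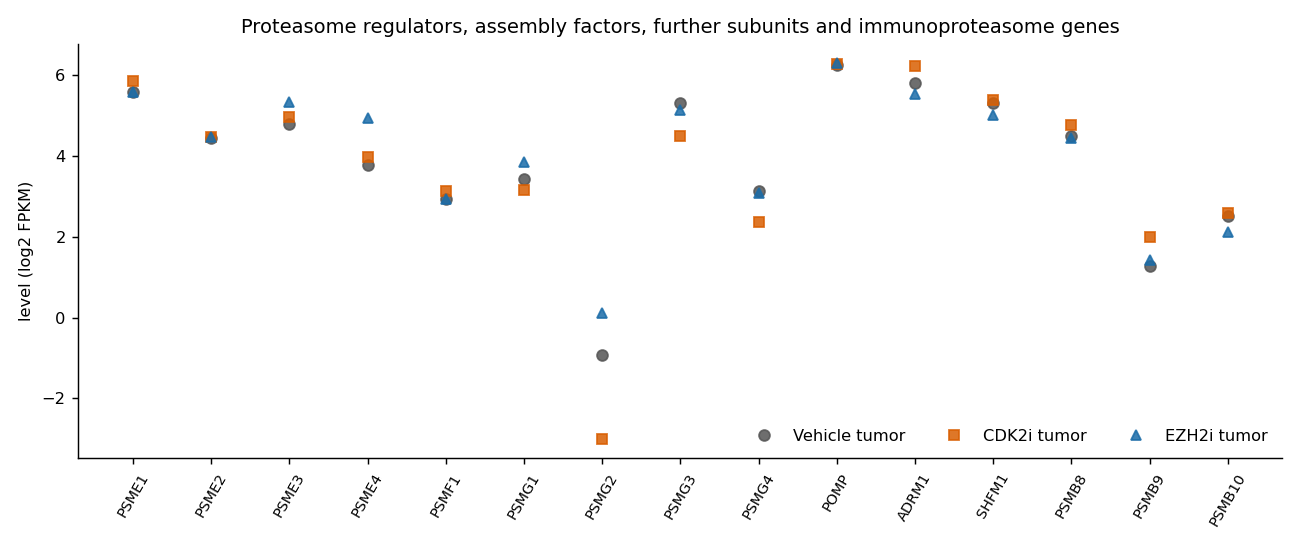
Level in log2 FPKM (vertical axis) of the 9 regulators and assembly factors taken by the name pattern and of POMP, ADRM1, SHFM1 and the 3 immunoproteasome genes, with 1 symbol per tumor and library. PSME4 is highest in EZH2i (4.93), PSMG1 to PSMG4 are lowest in CDK2i, and POMP lies at 6.24 to 6.30 in all 3 tumors.

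Genes that work with the constitutive subunits gave a background for these values. POMP, the maturation factor of the 20S core, was at 6.24, 6.27 and 6.30. ADRM1, a ubiquitin receptor of the 19S base, was at 5.79, 6.22 and 5.53, and SHFM1, a small lid subunit also called SEM1, at 5.31, 5.38 and 5.01. Of the immunoproteasome genes, which replace the catalytic subunits after interferon, PSMB8 was at 4.49, 4.77 and 4.43, PSMB9 at 1.27, 1.98 and 1.43 and PSMB10 at 2.50, 2.58 and 2.12. PSMB10 shares 56.1% of its transcript with a readthrough gene, so its level is uncertain. On the deposited scale each of the 3 was below its constitutive counterpart, PSMB5, PSMB6 or PSMB7, in each tumor.

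NFE2L1, the activator of subunit genes, was at 5.48, 5.64 and 5.42. Of the 8 listed genes of this pathway, 1 passed the thresholds higher and 1 lower in CDK2i, and 1 higher in EZH2i. Over all genes that reached the minimum the shares were 3.27% higher and 8.07% lower in CDK2i and 8.93% higher in EZH2i. NFE2L2, a related factor, was lower in CDK2i, at 3.20 against 4.21 in vehicle, and MAFF, a small partner of both, was higher, at 5.46 against 4.35. DDI2, the protease that releases NFE2L1 from the membrane, was higher in EZH2i, at 3.27 against 2.21. With the GC and length trend removed, MAFF still passed in CDK2i (1.13), NFE2L2 did not (−0.95), and DDI2 did not in EZH2i (0.44).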

How the data were processed

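RNAseq was made from 3 SUM-149 xenograft tumors, 1 library each. The authors deposited 1 table of log2 FPKM with 29689 gene symbols, mapped to GRCh37/hg19. CASAVA, STAR and hg19 are named in the submitters' processing notes. The counting tool, the gene lengths and how fragments in shared exons were counted are not given in the sources used here. A value of −9 stands for an FPKM of 0.

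Changes were differences of the deposited log2 values without a pseudocount. The fold threshold of 2 and the minimum of log2 FPKM 3 in the higher library are those stated with the study's list of changed genes, and its limma p-value was not used, since 1 library gives no error. Depth was estimated from the step of 1 fragment. Only 35.8% to 37.6% of the values under about 10 fragments were whole within 0.02 fragments with exon lengths of GENCODE 44 on GRCh37, so fragment numbers and counting intervals are approximate. GC content and length of the GENCODE 44 canonical transcript were known for 10283 expressed genes (92.6%), 705 of them through an older symbol in the RefSeq gene table. Their trend was a polynomial of degree 3, fitted per treated library without ribosomal protein genes. The step was tried on simulated data with a GC trend of the same polynomial form, no length trend and little noise. That trial does not show how well the trend of these libraries was removed. Promoter windows were those of RefSeq on GRCh38.p14, and the PSMD5 window is not printed because it overlaps exons of another gene. Python 3.11.15, numpy 2.4.6, pandas 2.3.3, scipy 1.17.1 and matplotlib 3.10.9 were used.

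The members, gene lists and motifs were chosen with earlier results of these data known. Values are given for the highest, lowest and most changed genes of each class, the catalytic genes, genes past the thresholds and a few related genes. Alternatives were other scalings, the GC and length correction, pseudocounts, other thresholds and other choices of members.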

Additional observations from a re-analysis of the deposited data

How the results depend on the processing

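The median differences of the 31 subunits kept their sign under each of the 10 alternatives, of which the pseudocounts could not turn it. In CDK2i, EZH2i and EZH2i against CDK2i they were −0.092, 0.041 and 0.077 with libraries centred on the median gene, −0.055, 0.474 and 0.473 with equal summed FPKM, −0.349, 0.269 and 0.562 with equal sums without ribosomal protein and mitochondrially encoded genes, and −0.107, 0.278 and 0.256 with the GC and length trend removed. With all 34 genes they were −0.221, 0.283 and 0.412. Without genes that share exons with a readthrough gene, an alternative chosen after seeing the data like the rescaling to canonical length, they were −0.183, 0.178 and 0.289. A pseudocount of 1 gave −0.192 in CDK2i and 0.219 in EZH2i, adding PSME, PSMF and PSMG genes gave −0.162 and 0.123, and leaving out the base chaperones gave 0.123 in EZH2i. Class medians changed sign for alpha genes in EZH2i (−0.109, centred), beta genes in EZH2i (0.261, trend removed) and non-ATPase genes in CDK2i (0.033, centred, and 0.070, equal sums). For the shifts in scaling, the median of all expressed genes in EZH2i was 0 to 0.43 and in CDK2i −0.26 to 0.04. The counts of 0 subunits past the thresholds became 2 in CDK2i and 4 in EZH2i at a fold of 1.5, and 1 in EZH2i without an expression minimum (PSMA6) or with the PSME, PSMF and PSMG genes (PSME4). The shares of all genes at a fold of 1.5 or without the minimum are not given here, so those counts cannot be set against a background. No paired analysis was possible because each group has 1 library, and no replicate could be left out.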

Other observations

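Other genes of the ubiquitin system and another complex of every cell were measured in the same tumors. The 14 listed factors that associate with the proteasome or carry substrates to it had a median difference from vehicle of 0.14 in CDK2i and 0.56 in EZH2i, and 13 of the 14 were higher in EZH2i. Over all expressed genes the medians were −0.11 and 0.19, and 61.5% were higher in EZH2i. None of the 14 passed the thresholds against vehicle, against 11.3% of all genes at the minimum in CDK2i and 13.4% in EZH2i. USP14, a deubiquitinase bound to the 19S particle, was at 3.41 in vehicle, 3.49 in CDK2i and 4.33 in EZH2i, and KIAA0368, a proteasome adaptor also called ECPAS, at 3.60, 3.60 and 4.49. ZFAND5, an activator of the proteasome, was higher by 1.34 (log2) in EZH2i than in CDK2i, at 4.48, 3.64 and 4.99, and by 0.86 with the GC and length trend removed. With the GC and length trend removed, the median of the 14 in EZH2i was 0.30, against 0.21 over all genes.

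Of the ubiquitin genes, RPS27A, which encodes ubiquitin fused to a ribosomal protein, was at 10.45 in vehicle, 9.05 in CDK2i and 9.38 in EZH2i and passed the thresholds in both. With the GC and length trend removed it passed in CDK2i (−1.28) but not in EZH2i (−0.94). UBA6, an E1 enzyme that activates ubiquitin, was at 2.52, 2.71 and 3.91 and passed in EZH2i, but not with the trend removed (0.64). UBB was at 6.68, 6.93 and 6.002. PAAF1 and AKIRIN2, assembly and import factors of proteasomes, differed from vehicle by −0.61 and −0.81 in CDK2i, and neither passed the thresholds. POMP, listed with them, differed by 0.03, and 58% of all expressed genes were lower in CDK2i. The 8 genes of the CCT chaperonin had a median difference of 0.08 in CDK2i and 0.53 in EZH2i, and 0.38 in EZH2i with the trend removed. Over all expressed genes the same values were −0.11, 0.19 and 0.21.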
